A study of Homo sapiens with 9 samples.

Results

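The fibrillar collagens form the rope-like fibrils of connective tissue, and 8 of their genes were followed here by symbol: COL1A1, COL1A2, COL2A1, COL3A1, COL5A1, COL5A2, COL5A3 and COL11A1. All 8 were found among the 27730 gene symbols of the deposited count table, each on a single row, and all 8 passed the filter on low counts in every comparison. RNA was sequenced from HUES9, an established human embryonic stem cell line that had been kept on mitomycin-treated mouse fibroblast feeder cells and was then differentiated as spun embryoid bodies that were later plated on Matrigel. The day 13 cultures had received 10 µM AA147, described in the labels as an activator of the stress sensor ATF6, or 10 µM RP22, described as its inactive analog, and the remaining cultures were collected at day 1 with no compound. Each of the 3 groups had 3 libraries from what the labels call independent experiments. All 3 groups come from this 1 line, so the p-values measure the spread between cultures of it. Solvent-only cultures were not analysed here. Human and mouse feeder reads cannot be told apart in these tables.

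A fibrillar collagen is made as a procollagen chain, and its chains wind into a triple helix in the endoplasmic reticulum after proline and lysine residues have been hydroxylated. The helix is secreted, its end propeptides are cut off, and the trimmed molecules line up into fibrils that lysyl oxidases cross-link. Type I collagen, built from the products of COL1A1 and COL1A2, is the main collagen of bone, skin and tendon, and type III, from COL3A1, accompanies it in blood vessels and other soft tissue. Type V, from COL5A1, COL5A2 and COL5A3, is a minor partner that helps to start type I fibrils, while type II, from COL2A1, and type XI, to which COL11A1 contributes, form the fibrils of cartilage. ATF6 is held in the endoplasmic reticulum membrane and, once released by stress, switches on genes for protein folding in that compartment.

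Library totals ranged from 9223027 to 10118258 reads. The summed level of 9 pluripotency genes was 239 to 301 CPM with AA147, 568 to 887 CPM with RP22 and 7436 to 8320 CPM at day 1, where each of the 9 had reads; NANOG had none with AA147. CPM express reads relative to library size, scaled here by the TMM method, which assumes that most genes do not change. Replicate 1 of the RP22 group stood apart from its partners, its counts over genes differing from those of replicates 2 and 3 with a chi-square of 33.7 and 32.5 per degree of freedom, whereas replicates 2 and 3 gave 2.62. Replicate 1 was also the most distant library of the AA147 group, at 10.9 and 11.6 where its partners gave 5.49, and of the day 1 group, at 15.7 and 9.55 where its partners gave 4.01. Scaling also mattered, since the median log2 fold change of all tested genes for AA147 over RP22 was -0.03 with TMM and -0.49 with library totals alone, and for AA147 over day 1 it was -0.04 with TMM and -0.48 with library totals.

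Between AA147 and RP22 cultures of the same day and dose, some fibrillar collagen genes were higher and others lower with AA147. The 4 genes COL1A1, COL1A2, COL5A1 and COL5A2 rose with AA147 by 2.41 to 4.32-fold, and COL2A1 and COL5A3 fell (edgeR's quasi-likelihood test with n = 3 per group, called where the Benjamini-Hochberg adjusted p over all 14293 tested genes was under 0.05). COL3A1 and COL11A1 did not pass. Among all tested genes 62% were called, 29.8% higher and 32.2% lower, so a call by itself was common in this comparison. The median log2 fold change of the 8 genes was 1.44, beside -0.03 for all tested genes. The groups did not overlap for any of the 8 genes, against 70.5% of all tested genes. With library totals in place of TMM, these 6 calls and all 8 directions were the same, and COL11A1 was called lower as well. The sizes did change with library totals. The log2 fold changes of the 4 higher genes then ran from 0.83 for COL5A2 to 1.67 for COL5A1, against 1.27 and 2.11 with TMM. COL2A1 and COL5A3 fell further, at -2.15 and -4.51.

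**Figure D1:**
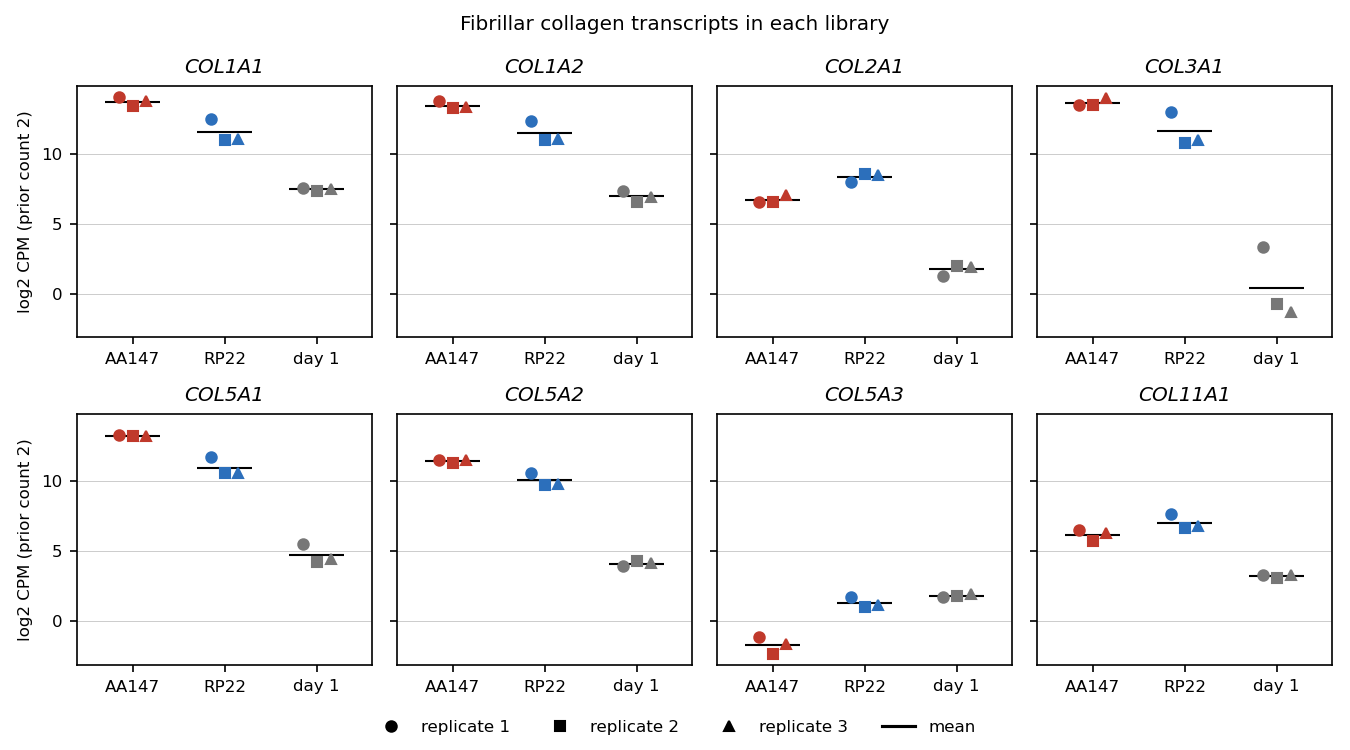
Level of each fibrillar collagen gene in the 9 libraries, as log2 CPM with a prior count of 2 on the vertical axis and group on the horizontal axis. Symbols are replicates and bars are group means; COL1A1, COL1A2, COL3A1, COL5A1 and COL5A2 lie highest with AA147, COL2A1 and COL11A1 lie highest with RP22, and COL5A3 is lowest with AA147.

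The type I genes were among the most abundant transcripts of the day 13 cultures. COL1A1, which encodes the chain present in more copies in the type I helix, had 16439, 10773 and 13621 CPM with AA147, 5675, 2052 and 2152 CPM with RP22, and 189.8, 158 and 182 CPM at day 1. Every AA147 library lay above every RP22 library, and every RP22 library above every day 1 library, with RP22 replicate 1 midway between its partners and the AA147 libraries on a log scale. The means were 13611 ± 2833 CPM with AA147 and 3293 ± 2064 CPM with RP22 (SD, n = 3). The log2 fold change was 1.97 ± 0.46 (SE), with an edgeR adjusted p of 0.0117. Without RP22 replicate 1 the log2 fold change was 2.63 (edgeR adjusted p = 1.81e-05, and 8.61e-11 to 0.0471 over 15 alternatives).

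COL1A2, which encodes the other type I chain, had 13437, 9515 and 10183 CPM with AA147, 5029, 2042 and 2122 CPM with RP22, and 162, 93.4 and 121 CPM at day 1. The order of the groups was that of COL1A1, again without overlap and with RP22 replicate 1 above its partners. Its log2 fold change for AA147 over RP22 was 1.77 ± 0.401 (SE, edgeR adjusted p = 0.00988). On a scale that corrects for gene length, the authors' RPKM, COL1A1 reached 1965 ± 452 RPKM with AA147, 676 ± 398 RPKM with RP22 and 34.4 ± 3.16 RPKM at day 1 (SD, n = 3). COL1A2 reached 1636 ± 351 RPKM with AA147, 647 ± 334 RPKM with RP22 and 25.1 ± 6.87 RPKM at day 1. By mean RPKM, COL1A1 ranked 3 among all symbols with AA147, 8 with RP22 and 2576 at day 1.

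The ratio of the COL1A1 level to the COL1A2 level, both in RPKM, varied far less between libraries than the levels themselves. It was 1.19, 1.10 and 1.30 with AA147, 1.10, 0.980 and 0.989 with RP22, and 1.14, 1.65 and 1.46 at day 1. The lowest AA147 ratio and the highest RP22 ratio were nearly equal.

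COL3A1, the gene of the type III homotrimer, showed the widest spread between libraries. With AA147 it had 11506, 11152 and 15684 CPM, with RP22 it had 8163, 1740.3 and 2016 CPM, and at day 1 it had 9.94, 0.389 and 0.199 CPM. The groups did not overlap, yet RP22 replicate 1 was 4.35 times the mean of replicates 2 and 3 and came close to the AA147 libraries. The log2 fold change for AA147 over RP22 was 1.61 ± 0.677 (SE), with a 95% interval from -0.11 to 3.33 and an edgeR adjusted p of 0.0908, which did not pass. Without RP22 replicate 1 it was 2.70 ± 0.179 and passed (edgeR adjusted p = 9.39e-06), as it did without replicate 1 of both groups and with limma-voom. Adjusted p ran from 9.39e-06 to 0.194 over 15 alternatives, 3 of which passed.

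**Figure D2:**
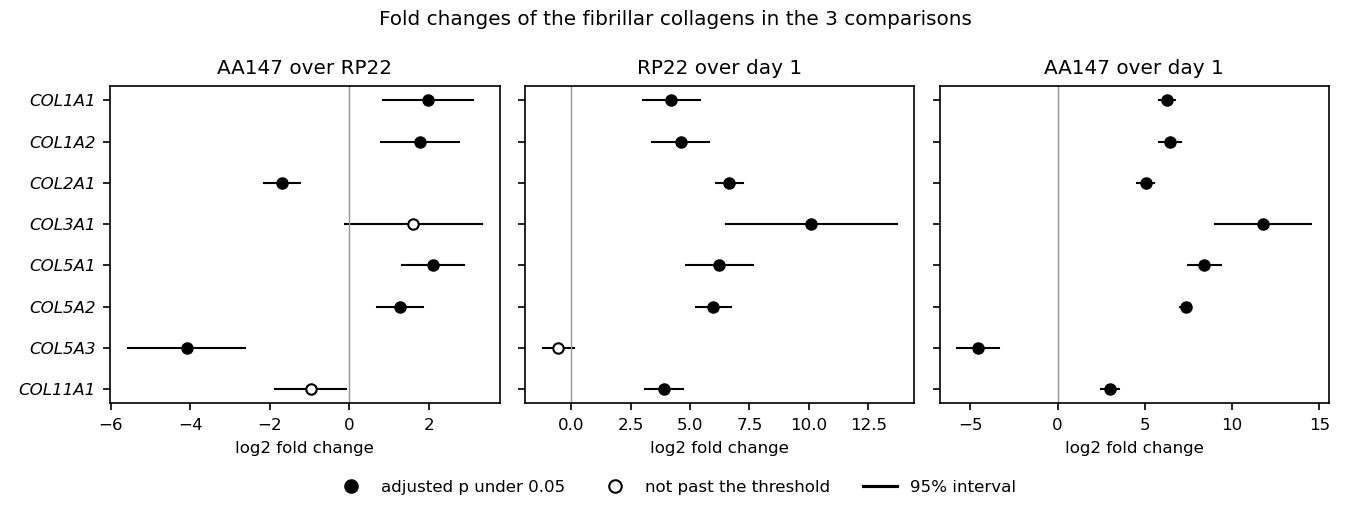
Log2 fold change of each fibrillar collagen gene on the horizontal axis, for AA147 over RP22, RP22 over day 1 and AA147 over day 1. Points are edgeR estimates, filled where the adjusted p was under 0.05, and lines are 95% intervals; between the compounds the intervals of COL1A1, COL1A2, COL5A1 and COL5A2 lie above 0, those of COL2A1, COL5A3 and COL11A1 below 0, and that of COL3A1 includes 0.

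The 3 type V genes parted ways. COL5A1 had 10011, 9545 and 9751 CPM with AA147, 3335, 1516 and 1578 CPM with RP22, and 45.1, 18.7 and 21.5 CPM at day 1. The AA147 libraries lay closer together, relative to their mean, than for any other member, while RP22 replicate 1 was 2.16 times the mean of its partners. The rise with AA147 was 2.11 ± 0.322 on the log2 scale (SE, edgeR adjusted p = 0.00157), or 4.32-fold.

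COL5A2 encodes the chain that joins COL5A1 products in the common type V helix. It had 2969, 2532 and 2968 CPM with AA147, 1560.0, 857 and 908 CPM with RP22, and 15.05, 19.9 and 17.4 CPM at day 1. It rose less than COL5A1 as an estimate, by 1.27 ± 0.238 on the log2 scale (SE, edgeR adjusted p = 0.00332). The difference between the 2 fold changes was not tested, but the ratio of COL5A1 to COL5A2 in RPKM, taken within each library, was 2.77, 3.10 and 2.70 with AA147 and 1.76, 1.45 and 1.43 with RP22. At day 1 that ratio was 2.46, 0.769 and 1.01, with replicate 1 again apart. All AA147 ratios thus lay above all RP22 ratios, and RP22 replicate 1 was nearest to them.

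COL5A3, the gene of a further type V chain with a narrow tissue range, was nearly silent with AA147. It had 2, 0 and 1 reads with AA147, 34, 20 and 24 reads with RP22, and 34, 34 and 37 reads at day 1. The RP22 and day 1 libraries overlapped at 34 reads, and all AA147 libraries lay below both. From the 3 reads with AA147 and 78 with RP22, the level was 17.6 times higher in RP22, with a 95% counting interval of 5.81 to 87.3. The fall had a log2 fold change of -4.09 ± 0.636 (SE, edgeR adjusted p = 0.000893). Without AA147 replicate 1, which held 2 of those 3 reads, the log2 fold change was -4.97.

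COL2A1, the gene of cartilage type II collagen, was lower with AA147 than with RP22. It had 92.4, 95.4 and 131 CPM with AA147, 254, 366 and 351 CPM with RP22, and 2.23, 3.79 and 3.58 CPM at day 1. The groups did not overlap, and here RP22 replicate 1 was the lowest of its group, nearest to the AA147 libraries from above. The means were 106 ± 21.7 CPM with AA147 and 323 ± 60.7 CPM with RP22 (SD, n = 3), and the log2 fold change was -1.69 ± 0.191 (SE, edgeR adjusted p = 0.000347). COL2A1 and COL5A3 kept their calls in all 15 alternatives.

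COL11A1, which encodes a chain of the type XI molecule found with type II, had 94.2, 53.1 and 77.7 CPM with AA147, 206, 101 and 110.2 CPM with RP22, and 9.57, 8.46 and 9.74 CPM at day 1. The highest AA147 library lay just below the lowest RP22 library. Its log2 fold change for AA147 over RP22 was -0.97 ± 0.357 (SE), with a 95% interval from -1.86 to -0.07, an unadjusted p of 0.0385 and an edgeR adjusted p of 0.0602, which did not pass. Of 15 alternatives 6 passed, with adjusted p from 0.000812 to 0.136, and without RP22 replicate 1 the log2 fold change was -0.56.

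Upstream sequence was available for 3 of the 8 members, COL5A1, COL5A3 and COL11A1. The other 5, COL1A1, COL1A2, COL2A1, COL3A1 and COL5A2, had no window in the sources used here. The 3 genes were thus set by availability and not chosen by direction. For AA147 over RP22, COL5A1 rose, COL5A3 fell and COL11A1 did not pass. RefSeq windows (GRCh38.p14, a different build from that of the counts, so that only the sequence is used) matched COL5A1 at chr9:134641553-134641802 on the plus strand, COL5A3 at chr19:10010505-10010754 on the minus strand and COL11A1 at chr1:103108523-103108772 on the minus strand. Each is printed 5′ to 3′ as the 250 bases that end at the annotated start, in lower case with every CCAAT (the box bound by the factor NF-Y) and every GGGCGG (the GC box bound by Sp1) in capitals on either strand, so that ATTGG and CCGCCC are capitals too.
COL5A1: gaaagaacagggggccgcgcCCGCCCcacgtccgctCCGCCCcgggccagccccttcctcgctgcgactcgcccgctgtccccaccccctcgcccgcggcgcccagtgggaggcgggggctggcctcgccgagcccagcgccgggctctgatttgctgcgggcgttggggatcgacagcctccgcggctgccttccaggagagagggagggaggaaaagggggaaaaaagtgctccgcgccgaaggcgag
COL5A3: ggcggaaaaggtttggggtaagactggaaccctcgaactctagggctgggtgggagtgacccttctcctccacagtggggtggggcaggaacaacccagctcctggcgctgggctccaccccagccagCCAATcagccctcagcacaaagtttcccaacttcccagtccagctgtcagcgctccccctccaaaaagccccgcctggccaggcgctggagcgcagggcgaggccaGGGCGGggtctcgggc
COL11A1: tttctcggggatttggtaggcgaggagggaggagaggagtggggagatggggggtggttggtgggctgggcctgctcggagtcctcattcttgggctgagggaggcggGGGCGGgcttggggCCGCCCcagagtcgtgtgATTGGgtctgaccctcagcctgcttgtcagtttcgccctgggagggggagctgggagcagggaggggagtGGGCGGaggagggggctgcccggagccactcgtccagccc

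A CCAAT box was present once in the COL5A3 window, 118 bases before the start, and once in the COL11A1 window, 106 bases before it on the opposite strand, and these letters did not occur in the COL5A1 window. The GC box was found 2 times for COL5A1, 1 time for COL5A3 and 3 times for COL11A1. The background was 27305 RefSeq windows of the same 250 bases, taken 1 per gene with 1 chromosome left out. Of these, 33.0% held a CCAAT and 42.3% a GC box on either strand. The endoplasmic reticulum stress element was searched as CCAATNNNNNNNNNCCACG on both strands, and so overlaps the CCAAT box. It was in 0.0806% of these background windows and did not match in the 3 printed here. A match is a run of letters only.

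Against the day 1 cells, 7 of the 8 genes rose with either compound. The day 13 and day 1 groups differ in both day and compound, so in these comparisons the parts of day and compound cannot be told apart. With RP22 71.9% of 14558 tested genes were called, 36.6% higher and 35.2% lower, and 7 of the 8 genes did not overlap with day 1, as was so for 76.9% of tested genes. With AA147 79.1% of 13761 tested genes were called, 38.7% higher and 40.4% lower, and all 8 genes did not overlap with day 1, as was so for 82.3% of tested genes. The median log2 fold change of the 8 genes was 6.36 with AA147, beside -0.04 for all tested genes, and 5.30 with RP22, beside 0.02. Both comparisons use the same day 1 libraries. COL5A3 was the eighth gene, and it fell with AA147 by 4.55 ± 0.533 on the log2 scale (SE, edgeR adjusted p = 3.14e-05). Leaving out AA147 replicate 1 gave a log2 fold change of -5.41. With RP22 its log2 fold change over day 1 was -0.54 ± 0.287 (SE), with a 95% interval from -1.20 to 0.12 and an edgeR adjusted p of 0.125. Thus 0 members were called lower with RP22 by edgeR, limma-voom or DESeq2, and 0 had an unadjusted edgeR p under 0.05 in that direction, but COL5A3 passed without RP22 replicate 1 (-0.82, edgeR adjusted p = 0.0197, and 0.0119 to 0.329 over 15 alternatives).

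The sizes of the day 13 differences separated the members. COL3A1 had the largest estimates of the 8, with log2 fold changes over day 1 of 11.79 ± 1.08 with AA147 and 10.11 ± 1.45 with RP22 (SE). These rest on 113 reads at day 1, of which 107 were in replicate 1, and without day 1 replicate 1 the estimates were 15.33 with AA147 and 13.65 with RP22. Without RP22 replicate 1 the RP22 estimate was 9.02. COL2A1 stood at 5.05 ± 0.216 with AA147 and 6.66 ± 0.236 with RP22, and COL11A1 at 3.02 ± 0.222 with AA147 and 3.90 ± 0.328 with RP22. COL1A1 stood at 6.27 ± 0.194 with AA147 and 4.22 ± 0.484 with RP22, and without RP22 replicate 1 the RP22 value was 3.57. COL1A2 stood at 6.46 ± 0.269 with AA147 and 4.61 ± 0.485 with RP22, COL5A1 at 8.42 ± 0.403 with AA147 and 6.23 ± 0.571 with RP22, and COL5A2 at 7.34 ± 0.144 with AA147 and 5.99 ± 0.310 with RP22. Apart from COL5A3 with RP22, no edgeR adjusted p of these genes against day 1 exceeded 0.00123.

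The make-up of the family changed along with its amount. The 8 genes held 4.02 ± 0.531% of all reads with AA147, 1.60 ± 0.944% with RP22 and 0.0398 ± 0.00708% at day 1 (SD, n = 3). The RP22 value was 2.69% in replicate 1 and 1.02% and 1.09% in replicates 2 and 3. At day 1 the type I genes made up most of the summed RPKM of the family, with 50.2 ± 4.41% for COL1A1 and 35.8 ± 3.59% for COL1A2.

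COL3A1 took 27.7 ± 4.81% of the summed RPKM with AA147, 27.1 ± 7.67% with RP22 and 0.860 ± 1.33% at day 1. The day 1 share came mainly from replicate 1, with 2.39%, where replicates 2 and 3 had 0.133% and 0.0573%. COL5A1 took 13.9 ± 1.49% with AA147, 11.3 ± 1.54% with RP22 and 5.08 ± 1.72% at day 1. The share of COL2A1 was 0.250 ± 0.0483% with AA147, 3.53 ± 2.03% with RP22 and 1.04 ± 0.419% at day 1. RP22 replicate 1, at 1.21%, lay within the day 1 range of 0.579 to 1.40%, while RP22 replicates 2 and 3 stood at 4.95% and 4.45%. COL11A1 had its largest share at day 1, where it held 2.04 ± 0.244%, against 0.122 ± 0.0204% with AA147 and 0.868 ± 0.164% with RP22.

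**Figure D3:**
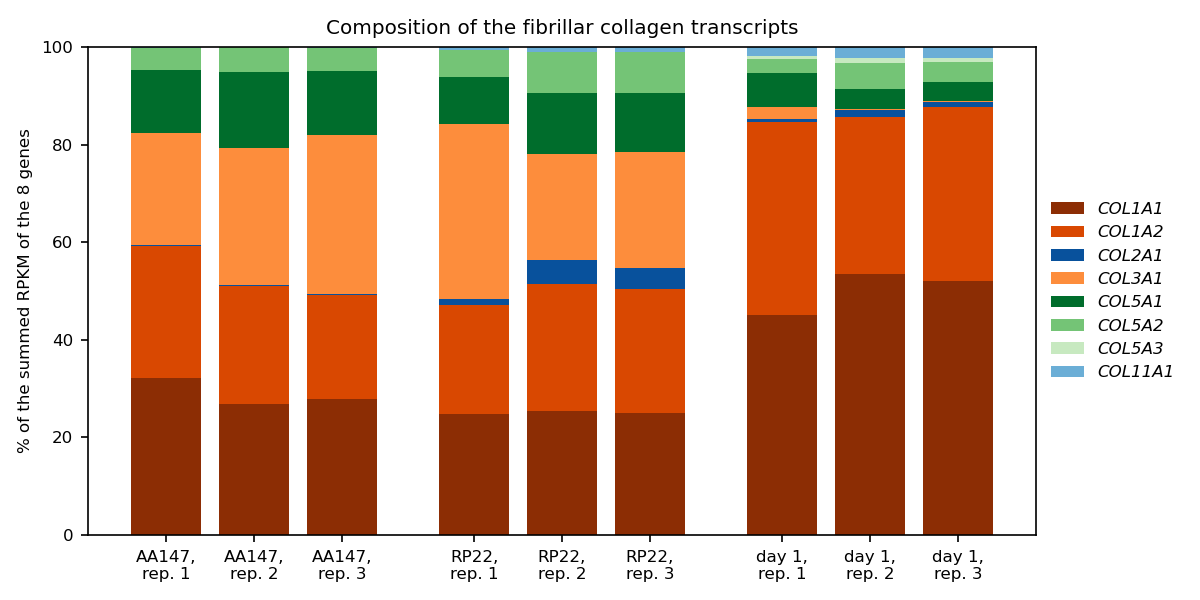
Share of each gene in the summed RPKM of the 8 fibrillar collagen genes, in percent on the vertical axis, for the 9 libraries on the horizontal axis. COL1A1 and COL1A2 fill most of each day 1 bar, COL3A1 and COL5A1 are wide at day 13, and the COL2A1 segment is visible mainly with RP22.

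Taken per length, the order of levels with AA147 ran from COL1A1 through COL3A1 (1858 ± 351 RPKM), COL1A2 and COL5A1 (925 ± 42.9 RPKM) to COL5A2 (326 ± 33.8 RPKM), COL2A1 (16.7 ± 3.22 RPKM), COL11A1 (8.37 ± 2.48 RPKM) and COL5A3 (0.0170 ± 0.0175 RPKM). The first 3 of these overlapped between libraries, and each later step was without overlap. With RP22 the leading gene by mean was COL3A1 (819 ± 721 RPKM), whose range of 373 to 1651 RPKM covered those of both type I genes. That lead came from replicate 1, since in replicates 2 and 3 COL3A1 (373 and 434 RPKM) lay below COL1A1 (435 and 459 RPKM) and COL1A2 (444 and 464 RPKM). COL5A1 (290.4 ± 129 RPKM) and COL5A2 (184 ± 57.7 RPKM) followed with overlapping ranges, then COL2A1 (73.9 ± 16.0 RPKM), COL11A1 (21.8 ± 8.20 RPKM) and COL5A3 (0.434 ± 0.120 RPKM), each below the one before without overlap. The COL5A1 and COL1A1 ranges also touched, since RP22 replicate 1 carried the highest value of both.

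At day 1 COL1A1 (30.9 to 37.0 RPKM) and COL1A2 (18.7 to 32.4 RPKM) overlapped and led the family by a wide margin. COL5A1 (3.65 ± 1.86 RPKM) and COL5A2 (2.73 ± 0.384 RPKM) overlapped below them. COL11A1 (1.395 ± 0.104 RPKM), COL3A1 (0.691 ± 1.10 RPKM), COL2A1 (0.687 ± 0.185 RPKM) and COL5A3 (0.593 ± 0.0473 RPKM) were lowest, and the COL3A1 range of 0.0390 to 1.96 RPKM covered those of the other three.

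Within the RP22 group, replicate 1 was higher than its partners for 7 of the 8 genes and lower for COL2A1. Relative to the mean of replicates 2 and 3, that library held 2.70 times the COL1A1 level, 2.42 times that of COL1A2, 4.35 times that of COL3A1 2.16 times that of COL5A1, 1.77 times that of COL5A2, 1.66 times that of COL5A3 and 1.94 times that of COL11A1 in CPM, but 0.709 times that of COL2A1. In the AA147 group, replicate 1 had 1.35 times the COL1A1 level of its partners, 1.36 times that of COL1A2, 0.815 times that of COL2A1, 0.858 times that of COL3A1, 1.04 times that of COL5A1, 1.08 times that of COL5A2 and 1.44 times that of COL11A1. For COL5A3 the ratio was 4.16, from 2 reads in replicate 1 and 0 and 1 in its partners. At day 1, replicate 1 had 33.8 times the COL3A1 level and 2.25 times the COL5A1 level of its partners, and 1.12 times that of COL1A1.

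**Figure D4:**
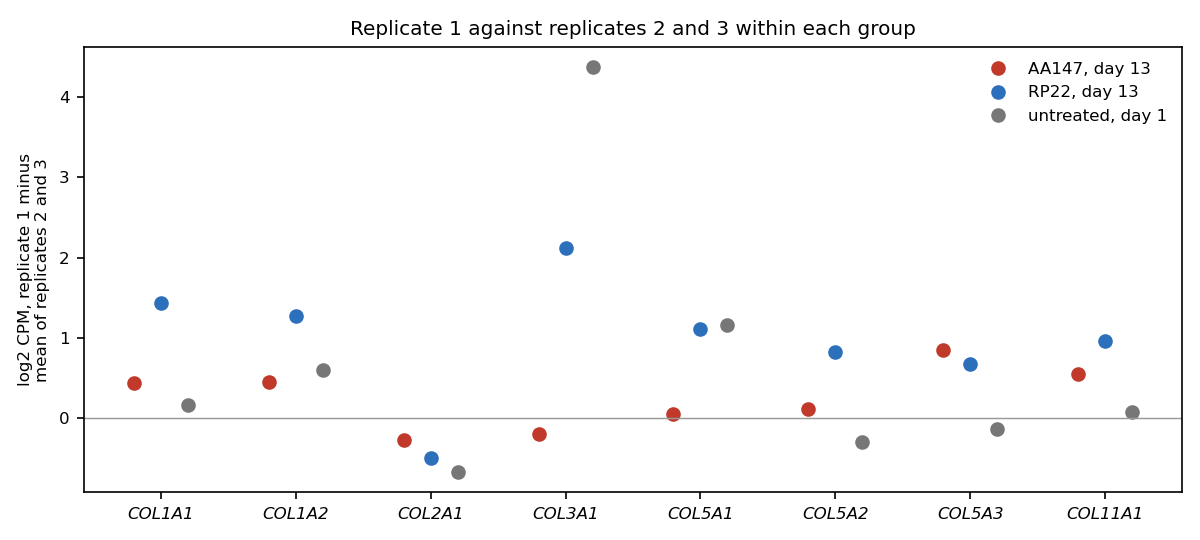
Difference in log2 CPM between replicate 1 and the mean of replicates 2 and 3 on the vertical axis, for each fibrillar collagen gene and group. RP22 replicate 1 is above its partners for 7 genes and below for COL2A1, and day 1 replicate 1 is far above its partners for COL3A1.

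Cell type markers moved in the same library and between the compounds, and their part in the collagen differences was not tested. In bulk RNA, fewer cells of a type and less RNA per cell cannot be told apart. The summed level of 9 fibroblast and mesenchyme markers was 181 to 237 CPM with AA147, 180 to 379 CPM with RP22 and 57.1 to 81.8 CPM at day 1, with RP22 replicate 1 the highest of all. Of the 7 tested between the compounds, 1 rose with AA147, the pericyte and mesenchyme receptor gene PDGFRB, and 3 fell, TWIST1, PDGFRA and TCF21, while FAP, TCF21 and DPT had no reads at day 1.

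Smooth muscle and pericyte markers summed to 6768 to 7669 CPM with AA147, 1265 to 1538 CPM with RP22 and 568 to 627 CPM at day 1. Of these 9 markers 6 rose with AA147 over RP22 and 1 fell, and none was without reads in any group. The most abundant with AA147 were CALD1 (2896 CPM) and TAGLN (2170 CPM), which both rose. RGS5, a pericyte marker, fell, with 19.0 CPM with AA147 and 160 CPM with RP22 (edgeR adjusted p = 0.0133). MYH11 (2.92 CPM with AA147 and 1.94 CPM with RP22, edgeR adjusted p = 0.25) and DES (edgeR adjusted p = 0.936) did not pass. Neural crest markers summed to 479 to 486 CPM with AA147 and 647 to 1196 CPM with RP22, the highest value being that of replicate 1, and to 219 to 325 CPM at day 1. Of these 9 markers 1 rose with AA147 over RP22 and 7 fell, and FOXD3 had no reads with AA147.

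Cartilage markers, those closest to COL2A1 and COL11A1 in tissue, summed to 469 to 670 CPM with AA147, 456 to 559 CPM with RP22 and 118 to 136 CPM at day 1. Most of the day 1 sum was LECT1, which averaged 111 CPM at day 1, 1.73 CPM with RP22 and 0.129 CPM with AA147. Of 8 markers 6 were tested between the compounds, of which 1 rose with AA147 and 2 fell. LECT1 was 1 of the 2 that fell (edgeR adjusted p = 0.00241). ACAN, the main cartilage proteoglycan gene, averaged 0.175 CPM with AA147 and 25.4 CPM with RP22 (edgeR adjusted p = 0.00295). MATN3, for a cartilage matrilin, rose, with 70.7 CPM with AA147 and 18.2 CPM with RP22 (edgeR adjusted p = 8.43e-06). HAPLN1, a link protein gene and the most abundant of the list at day 13, averaged 452 CPM with AA147 and 389 CPM with RP22 and did not pass (edgeR adjusted p = 0.525). SOX9, which encodes the factor that drives COL2A1 in chondrocytes, averaged 68.6 CPM with AA147 and 64.1 CPM with RP22, a log2 fold change of 0.02 ± 0.121 (SE, edgeR adjusted p = 0.892).

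Notochord, another embryonic tissue with type II collagen, had 4 markers whose sum was 0 to 0.262 CPM with AA147, 6.35 to 13.0 CPM with RP22 and 0.486 to 0.650 CPM at day 1. T, NOTO and FOXA2 had no reads with AA147, NOTO had none with RP22 and SHH had none at day 1. Both notochord markers tested between the compounds fell. Bone markers summed to 1047 to 1277 CPM with AA147, 194 to 415 CPM with RP22 and 336 to 452 CPM at day 1, with 2 of 3 tested markers higher and 1 lower between the compounds. Most of the AA147 sum was SPP1, which averaged 1172 CPM with AA147, 225 CPM with RP22 and 167 CPM at day 1. RUNX2 also rose, with 17.8 CPM with AA147 and 4.17 CPM with RP22. ALPL fell, with 1.59 CPM with AA147 and 44.3 CPM with RP22. The osteoblast genes SP7, IBSP and DMP1 had no reads with AA147, IBSP had none with RP22, and SP7 and IBSP had none at day 1.

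Neural progenitor markers summed to 707 to 925 CPM with AA147, 769 to 1125 CPM with RP22 and 1069 to 1098 CPM at day 1, and 7 of 8 tested fell with AA147 against RP22, with HES5 and FABP7 at 0 with AA147. Most of these sums was NES, which averaged 786 CPM with AA147, 635 CPM with RP22 and 783 CPM at day 1. NES did not pass between the compounds (edgeR adjusted p = 0.123). Neuron markers summed to 460.4 to 519 CPM with AA147, 883 to 1123 CPM with RP22 and 200.2 to 270.0 CPM at day 1, and 1 of 6 tested rose and 5 fell. The 1 that rose was TUBB3, which made up most of the AA147 sum. TUBB3 averaged 439 CPM with AA147, 323 CPM with RP22 and 155 CPM at day 1. Endothelial markers summed to 6.34 to 24.2 CPM with AA147, 88.2 to 186 CPM with RP22 and 40.4 to 59.8 CPM at day 1, and 4 of 5 tested fell, with PECAM1 at 0 with AA147 and at day 1. Cardiomyocyte markers summed to 197 to 255 CPM with AA147, 59.5 to 108 CPM with RP22 and 4.87 to 5.64 CPM at day 1, and 1 of 5 tested rose and 2 fell, with MYH7 at 0 with AA147 and NKX2-5 at 0 at day 1. The 1 that rose was MYL7, which made up most of the AA147 sum, with 169 CPM with AA147 and 29.8 CPM with RP22.

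Genes for making and exporting procollagen were mostly higher with AA147 than with RP22. Of 16 tested genes for procollagen modification and folding, 14 rose and 1 fell, with a median log2 fold change of 1.02 beside -0.03 for all genes. P4HB, a subunit of prolyl hydroxylase, had 1820.2 CPM with AA147 and 633 CPM with RP22 (1.44 ± 0.121, log2 fold change ± SE). SERPINH1, the collagen chaperone HSP47, had 1212 CPM with AA147 and 507 CPM with RP22 (1.18 ± 0.200). FKBP10 (0.79 ± 0.180), another folding helper, and PLOD1 (1.73 ± 0.0991), a lysyl hydroxylase, rose as well, and none of these 4 genes had an edgeR adjusted p above 0.00747. The gene that fell was COLGALT2, for a collagen galactosyltransferase, at -2.70 ± 0.411 (edgeR adjusted p = 0.00135), named after its value had been seen.

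Downstream of folding, 3 of 5 genes for procollagen export rose and the others did not pass, with SEC31A (0.99 ± 0.0997), SEC24D (1.40 ± 0.188) and SEC23A (0.93 ± 0.121), all parts of the COPII vesicle coat, as the log2 fold changes ± SE of those that rose. The median of the export list was 0.93. Of 12 genes for propeptide cleavage and cross-linking, 8 rose and 2 fell, with a median of 0.83. The lysyl oxidase genes LOXL2 (2.45 ± 0.116; 985 CPM with AA147 and 170.3 CPM with RP22) and LOX (2.10 ± 0.567), the C-propeptide protease gene BMP1 (1.89 ± 0.131) and the N-propeptide protease gene ADAMTS2 (0.59 ± 0.0693) rose, with no edgeR adjusted p above 0.0247. The 2 that fell, LOXL3 (-1.89 ± 0.183) and PCOLCE2 (-2.63 ± 0.429), were named after their values had been seen. With library totals alone, 4 genes of the cleavage and cross-linking list were called higher, and 5 were without AA147 replicate 1. With library totals alone 2 genes of the export list were called lower.

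Other collagen genes also moved in both directions. Of 10 fibril-associated collagen genes 2 rose with AA147 and 5 fell, with a median of -1.73. COL12A1 (2684 CPM with AA147 and 394 CPM with RP22) and COL16A1 (409 CPM with AA147 and 71.4 CPM with RP22) rose, and the type XII collagen of COL12A1 is known from the surface of type I fibrils. COL9A2 (11.7 CPM with AA147 and 102 CPM with RP22) and COL9A3 (8.69 CPM with AA147 and 41.1 CPM with RP22), which encode chains of type IX collagen on cartilage fibrils, fell. Of the 3 fibrillar collagen genes outside the set, COL24A1 rose (1.44 ± 0.361), COL11A2, a partner of COL11A1, fell (-4.06 ± 0.210), and COL27A1 had a log2 fold change of -0.31 ± 0.315 (SE). None of the genes named here as higher or lower had an edgeR adjusted p above 0.00909.

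Among 10 tested collagen genes of other classes, 3 rose and 2 fell, with a median of -2.10. COL7A1 (2.00 ± 0.153), COL17A1 (1.47 ± 0.151) and COL8A1 (1.17 ± 0.180) rose and COL6A1 (-2.88 ± 0.786) fell, with no edgeR adjusted p above 0.0259. Called lower in this list were 4 genes with library totals alone and 1 gene without RP22 replicate 1. Of 5 tested fibril-binding proteoglycan genes 2 fell, BGN (-2.71 ± 0.745, edgeR adjusted p = 0.0252) and PRELP (-2.21 ± 0.373, edgeR adjusted p = 0.00133), and the list had a median of -2.21. Without RP22 replicate 1 the list had 1 gene higher and 1 lower. The summed proteoglycan level was 915 to 1303 CPM with AA147 and 403 to 1788 CPM with RP22, the highest value again in replicate 1. Of 5 tested collagen receptor genes 3 rose, namely DDR1 (1.46 ± 0.129), ITGA11 (2.80 ± 0.331) and ITGA2 (1.94 ± 0.161), with no edgeR adjusted p above 0.000822 and a list median of 1.46. With library totals, or without RP22 replicate 1, 1 receptor gene was called lower.

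Regulators of fibrillar collagen transcription were the last list, with 6 of 12 tested genes higher and 3 lower and a median of 0.65. TGFB2, a ligand that raises collagen synthesis in many mesenchymal cells, averaged 1049 CPM with AA147 and 127 CPM with RP22 (2.97 ± 0.112). Its receptor gene TGFBR1 (1.21 ± 0.107) and the signal transducer gene SMAD3 (0.55 ± 0.0916) rose, while the general factor gene SP1 (-0.44 ± 0.0697) fell. No edgeR adjusted p among these 4 genes exceeded 0.00125. SOX5 (-1.82 ± 0.264, edgeR adjusted p = 0.000756) and SOX6 (-3.93 ± 0.967, edgeR adjusted p = 0.018) fell as well, and were named after their values had been seen.

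Against day 1, the same lists were mostly higher at day 13 with either compound. Among all tested genes 38.7% were called higher and 40.4% lower with AA147, and 36.6% higher and 35.2% lower with RP22. Of the 16 modification and folding genes 15 rose with AA147 and 12 with RP22, and none was called lower, except 1 gene with AA147 when library totals were used. Of the 12 cleavage and cross-linking genes 8 rose and 2 fell with AA147, and 10 rose with RP22. All 5 tested receptor genes rose with AA147, and 4 of 5 rose with RP22. The fibril-associated collagens were not mostly higher with AA147, where 3 of 9 tested rose and 4 fell, near the shares of all tested genes. Their median log2 fold change was -0.51, beside -0.04 for all tested genes. With RP22 6 of 10 fibril-associated collagens rose and 1 fell. The regulators had 10 of 11 tested genes higher with AA147 and 11 of 12 with RP22.

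**Figure D5:**
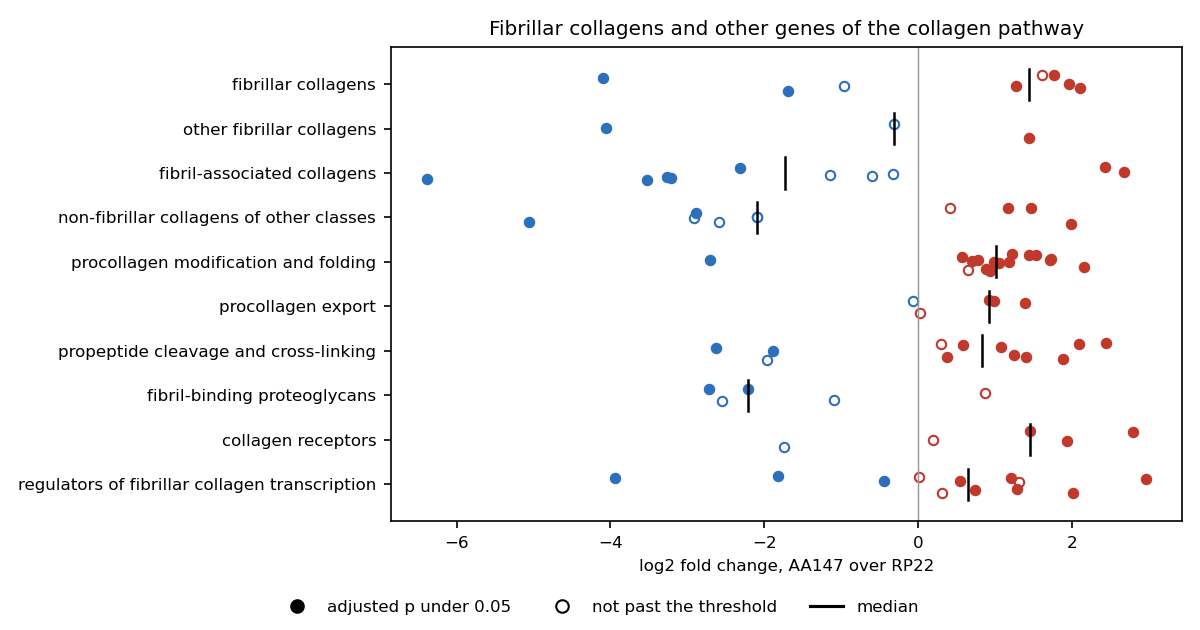
Log2 fold change for AA147 over RP22 on the horizontal axis, for the 8 fibrillar collagen genes and 9 lists of related genes. Each point is a gene, filled where the edgeR adjusted p was under 0.05, and bars are medians; the medians were 1.44 for the 8 genes, 1.02 for modification and folding and -1.73 for the fibril-associated collagens.

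Across the 9 libraries, each member was also matched to the genes with the most similar log2 CPM among 12156 with a mean of at least 5 CPM. These correlations describe libraries that fall into 3 groups and share depth and scaling, so values near 1 are common. COL5A1 was closest to the laminin gene LAMB1 (Pearson r = 0.9991), and COL5A2 to S100A6 (0.9992) and the mesenchymal cadherin gene CDH11 (0.9991). COL1A1 was closest to SLC39A9 (0.9985), COL1A2 to TMEM109 (0.9976), COL3A1 to C20orf194 (0.9966) with the heart and mesoderm factor gene HAND1 next (0.9959), COL2A1 to the WNT enhancer gene RSPO3 (0.9962) and COL11A1 to MUM1L1 (0.9964). COL5A3 was closest to MEGF10 (0.9972) and the cell cycle kinase gene CDK1 (0.9964).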

How the data were processed

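Per the file headers, the authors deposited 1 table of reads per gene and 1 of RPKM (reads per gene length and library size) for the 9 libraries; the reads are expected counts, since 0.914% of the deposited values are fractions. Per the submitters' processing notes the build was GRCh37.p13; which aligner and counter were used is not given in the sources used here. Floor values (0.05 in the counts, 0.002 in RPKM) were read as 0, 42 repeated symbols were summed and counts were rounded; no member value was a fraction. Each of the 3 comparisons was fitted on its own 6 libraries in R 4.3.3 with edgeR 4.0.16 (filterByExpr, TMM, robust quasi-likelihood F test), with Benjamini-Hochberg adjustment over all genes tested and a threshold of 0.05. The SE is the absolute log2 fold change divided by the square root of F. CPM used TMM over all 9 libraries. Counting intervals cover counting error only. Alternatives used DESeq2 1.42.0 and limma 3.58.1 (voom, or log2 of RPKM + 1). The procedure was tested on simulated data. The members and lists were chosen with earlier results of these data known. Up to 4 genes per pathway list are named, those past the test for AA147 with RP22 with the highest mean CPM, and 1 to 3 lookalike genes per member.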

Additional observations from a re-analysis of the deposited data

Results flagged for a closer look

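The change from day 1 to day 13 differed between the 2 compounds for 6 of the 8 genes, by the edgeR quasi-likelihood test of AA147 against RP22, in which 62% of 14293 tested genes were called. The differences in log2 change, AA147 minus RP22, were 1.97 for COL1A1, 1.77 for COL1A2, 2.11 for COL5A1 and 1.27 for COL5A2, which went further with AA147. They were -1.69 for COL2A1, which rose less with AA147, and -4.09 for COL5A3, which fell with AA147 and did not pass against day 1 with RP22. The test of the difference is the day 13 comparison itself, so these values add no independent evidence.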

How the results depend on the processing

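Of 15 alternatives for each gene and comparison, none reversed a direction and none ended a call made by edgeR for COL1A1, COL1A2, COL2A1, COL5A1, COL5A2 or COL5A3 between the compounds, or for any called gene against day 1. Members called higher numbered 4 to 5 and called lower 2 to 3 for AA147 over RP22 when single libraries or replicate 1 of both groups were left out, against 4 and 2 with all. For RP22 over day 1, members called lower numbered 0 to 1 in the same way, COL5A3 being called without RP22 replicate 1. COL11A1 passed between the compounds with library totals, DESeq2, limma on RPKM, all 9 libraries in 1 fit, a replicate block and without replicate 1 of both groups; the cause was not tested. Whether replicate numbers pair the samples cannot be settled from these values. Same-numbered AA147 and RP22 libraries had correlations of deviations of 0.191, 0.164 and 0.0295. Differently numbered ones ran from -0.232 to 0.167. With the replicate block, 8674 genes were called for AA147 over RP22, against 8865, and COL11A1 had a log2 fold change of -0.94 (edgeR adjusted p = 0.000812); the block changed no other member call. The share of calls that were higher was 48.1% with TMM and 18.2% with library totals for AA147 over RP22, and 48.9% and 34.3% for AA147 over day 1. Limma on log2(RPKM + 1) understates low genes, as with COL5A3 at -0.49 for AA147 over RP22. Depth limits COL5A3, with 3 reads over the AA147 libraries, and COL3A1 at day 1.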

Other observations

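The gene length behind the deposited RPKM of COL11A1 differed between groups. Dividing reads by RPKM and library total gives the gene length that the authors' scaling used, and for COL11A1 it was 7184, 7182 and 7184 bases with AA147, 7324 bases in all 3 RP22 libraries, and 7181, 7185 and 7182 bases at day 1. The RP22 length was thus 1.96% longer, which was not tested. Of 9692 genes with at least 50 reads in every library, 47.4% kept a length within 0.5% inside each group, and COL11A1 was the 1 gene whose RP22 length differed by over 1% from both other groups while these matched within 0.5%. With AA147 apart there were 8 such genes, and with day 1 apart there were 8. The limits that single out COL11A1 were set after the values had been seen, the sources used here do not say how the authors set the length, and the tables hold no reads per exon. COL2A1 used 4978 bases in day 1 replicate 3, where it had 36 reads, and 5086 to 5087 bases in the other 8 libraries.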
